A study of Mus musculus with 8 samples.

Results

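The 9 genes described here encode tubulins, the protein subunits of microtubules, and were chosen by symbol from the 35072 genes of the deposited table: the alpha-tubulins Tuba1a, Tuba1b, Tuba1c and Tuba4a, the beta-tubulins Tubb5, Tubb4b, Tubb2a and Tubb6, and the gamma-tubulin Tubg1. They were picked with the formate contrast of these libraries already known, so their formate differences are given as a description, without a test. The libraries come from CD8 T cells of wildtype mice, taken naive from spleen and lymph nodes and activated during 18 h by aCD3 and aCD28 antibodies, against the T cell receptor complex and its costimulator, plus IL-12, a cytokine that promotes the cytotoxic programme. For the next 24 h, the cells of 4 libraries received PBS, the vehicle control, and those of 4 received 2 mM formate, the one-carbon metabolite; the series title concerns an exercise-induced metabolite made by gut microbes, CD8 T cells and antitumour immunity. All 8 libraries thus share genotype, tissue, activation and cytokine, and differ by label only in PBS or formate. No mouse age is stated, and no label says whether libraries of 1 group came from separate animals or cultures.

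Alpha- and beta-tubulin form a dimer that polymerises head to tail into the microtubule wall, and gamma-tubulin sits in a ring complex that seeds new microtubules at the centrosome. Activated T cells use microtubules to build the mitotic spindle, and cytotoxic T cells also use them to bring the centrosome and lytic granules to the contact with a target cell. Cells additionally adjust their tubulin mRNAs to the amount of free tubulin dimer: the factor TTC5 recognises newly made tubulin on the ribosome and recruits the CCR4-NOT deadenylase, and the mRNA is then degraded.

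Promoter windows are shown for 4 members, chosen with their formate differences known. Tubb5 and Tuba4a were lower with formate in 4 of 4 pairs of libraries. Tubb4b was lower by less, and the mean of Tuba1c was almost the same in both groups. Tuba1b, also lower in 4 of 4 pairs, is not shown. Tubb6, the member with the largest difference, has no window in the RefSeq promoter table. Windows run from 250 to 11 bases before the RefSeq start site (build GRCm38.p6), 5′ to 3′ on the gene's own strand. Capitals mark CCAAT, the letters bound by the factor NF-Y, and GGGCGG, the core of the site of Sp factors, each on either strand (ATTGG and CCGCCC); no capital run overlaps another. They lie at chr17:35838312-35838551 (minus strand) for Tubb5, chr2:25224713-25224952 (minus) for Tubb4b, chr1:75219305-75219425 (minus) for Tuba4a and chr15:99029641-99029880 (plus) for Tuba1c. The Tuba4a window is cut to 121 bases because the rest overlaps an annotated exon. It lies inside the GENCODE span of Tuba4a (chr1:75214228-75219865), while the other windows lie outside the spans of their genes.
Tubb5: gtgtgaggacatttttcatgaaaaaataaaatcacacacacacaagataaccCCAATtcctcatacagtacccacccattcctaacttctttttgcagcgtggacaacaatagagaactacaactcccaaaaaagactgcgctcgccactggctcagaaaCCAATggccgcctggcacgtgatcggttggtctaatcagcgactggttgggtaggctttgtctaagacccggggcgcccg
Tubb4b: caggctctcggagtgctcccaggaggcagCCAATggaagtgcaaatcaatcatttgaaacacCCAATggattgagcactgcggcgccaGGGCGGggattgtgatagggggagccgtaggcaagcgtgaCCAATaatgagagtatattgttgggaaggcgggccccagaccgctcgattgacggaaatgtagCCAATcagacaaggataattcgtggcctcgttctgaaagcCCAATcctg
Tuba4a: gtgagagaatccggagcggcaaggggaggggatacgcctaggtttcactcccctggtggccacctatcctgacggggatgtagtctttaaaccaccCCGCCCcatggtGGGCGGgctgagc
Tuba1c: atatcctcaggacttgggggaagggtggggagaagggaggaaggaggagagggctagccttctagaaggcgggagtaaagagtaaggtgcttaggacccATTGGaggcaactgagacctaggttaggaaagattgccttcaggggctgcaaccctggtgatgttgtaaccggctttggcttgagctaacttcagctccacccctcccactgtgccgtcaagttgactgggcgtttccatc

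The Tubb4b window held 5 CCAAT matches, a number reached by 0.189% of 32851 RefSeq windows of 240 bases. The Tubb5 window held 2, as 9.64% of windows or more do, Tuba1c held 1 (33% hold at least 1) and Tuba4a held 0 in all 240 bases searched. GGGCGG occurred 2 times in the Tuba4a window and 1 time in that of Tubb4b; 15% of windows hold at least 2 and 31.3% at least 1. TTTGAA, the letters of the cell cycle homology region, was searched on both strands too and was found 1 time, in Tubb4b, against 15.5% of all windows. These are matches of letters. Neither binding nor use of these sites was measured. Of the 9 members, 7 are in the RefSeq promoter table, all but Tubb6 and Tubg1.

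Library totals ran from 29361986 to 41393093 estimated counts, so counting error is small for every member. Values below are CPM, the normalised read count relative to the library total after TMM scaling, as mean ± SD of 4 libraries. Sample titles end in a code, and neighbouring codes (1 with 2, 7 with 8, 10 with 11, 13 with 14) hold 1 control and 1 formate library per pair. Controls 1 to 4 have codes 10, 13, 1 and 7, and formate libraries 1 to 4 have codes 11, 14, 2 and 8. Codes 1 to 8 and codes 10 to 14 form 2 library sets that stand apart in these data, each with 2 control and 2 formate libraries. No label says what the sets or the neighbours are. All log2 differences are formate minus control from edgeR, first without and then, where given, with the neighbours as pairs. Lower mRNA in a whole culture cannot be split into fewer cells expressing a gene and less RNA per cell.

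The tubulin message pool was dominated by Tuba1b and Tubb5. Scaled by mean transcript length, the levels over all 8 libraries were 2370 ± 218 CPM per kilobase for Tuba1b and 1542 ± 143 for Tubb5. Tubb4b came next with 517 ± 36.5 CPM per kilobase. Then followed Tuba1c (273 ± 13.8), Tuba1a (232 ± 106) and Tuba4a (227 ± 43.9), 3 genes whose neighbours in this order overlapped over the libraries. Tubg1 lay at 73 ± 5.29 CPM per kilobase, below the 6 more abundant alpha and beta members, and Tubb2a (25 ± 2.61) and Tubb6 (18.3 ± 6.1) overlapped at the low end. The middle of the order depends on the length used: by the longest transcript, Tuba1a (232) exceeded Tuba1c (190) and Tuba4a was at 93 CPM per kilobase.

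**Figure D1:**
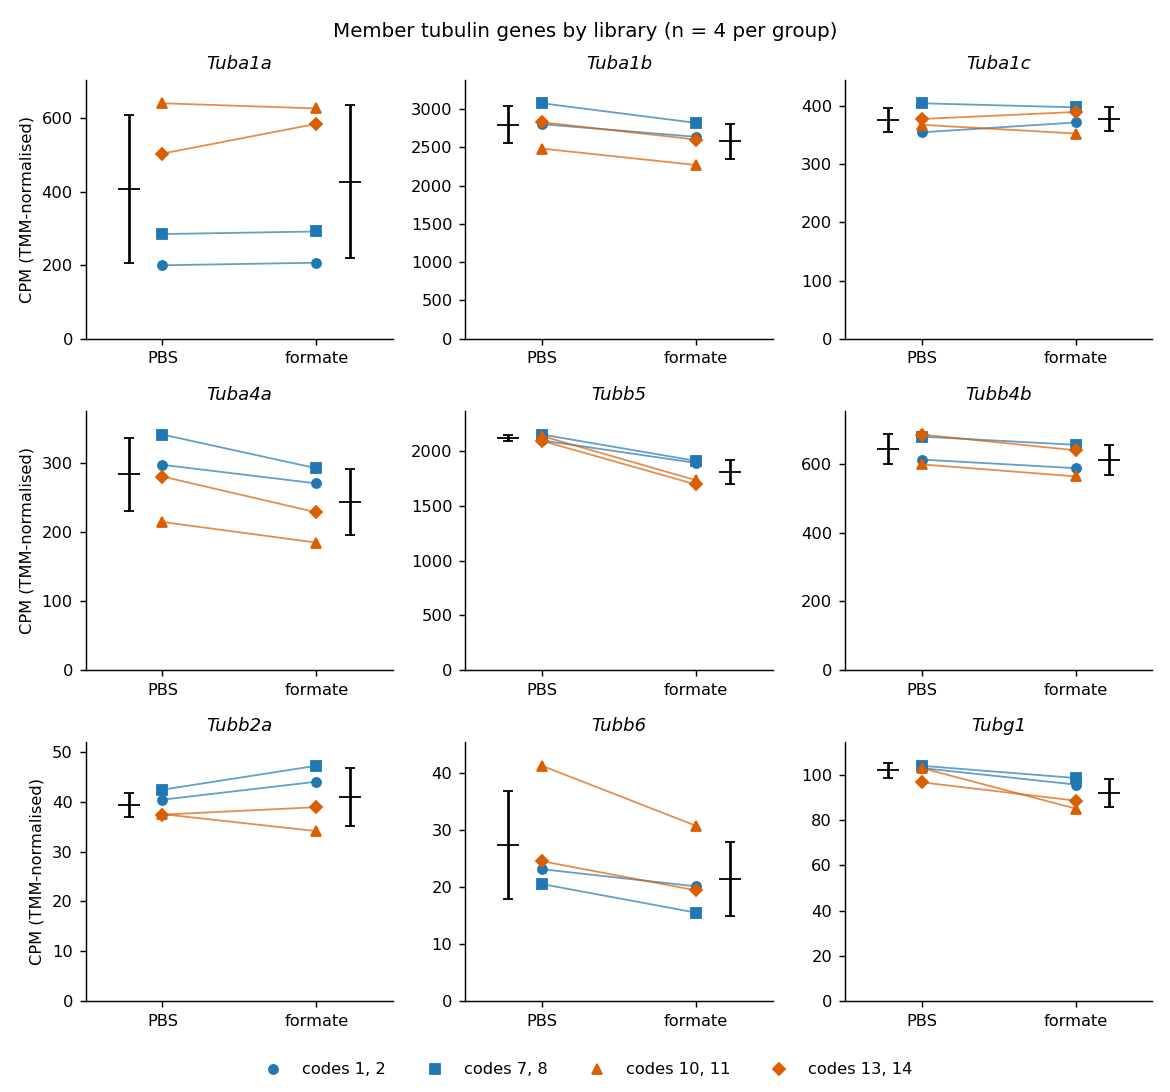
CPM of each member (vertical axes, from 0) in PBS and formate libraries; lines join neighbouring title codes, blue marks codes 1 to 8 and orange codes 10 to 14, and black bars give mean ± SD (n = 4). Tubb5 is the 1 member whose groups do not overlap, from 2096 to 2154 CPM with PBS and 1697 to 1913 with formate, and Tuba1a separates by colour rather than by treatment.

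Among alpha-tubulins, the main form Tuba1b (ENSMUSG00000023004, chr15:98931425-98934565, minus strand of GRCm38) had 2483, 2827, 2802 and 3075 CPM in controls 1 to 4 and 2269, 2601, 2637 and 2819 CPM in formate libraries 1 to 4. Every formate library lay below its neighbouring control, and the groups overlapped. The means were 2797 ± 243 and 2581 ± 229 CPM, a log2 difference of -0.12 (SE 0.10; with pairs SE 0.05). The pair differences were close to each other, from -0.13 to -0.09.

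Tuba4a (ENSMUSG00000026202, chr1:75214228-75219865, minus strand), whose product unlike most alpha-tubulins is made without the C-terminal tyrosine, had 215, 281, 298 and 342 CPM in the controls and 185, 229, 271 and 293 CPM with formate. Formate libraries were again below their neighbours in 4 of 4 pairs, while the spread between pairs exceeded the difference within them. The means were 284 ± 52.8 and 244 ± 47.8 CPM, a log2 difference of -0.22 (SE 0.18; with pairs SE 0.04).

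Tuba1c (ENSMUSG00000043091, chr15:99029891-99038110, plus strand) did not take part in the lower values: 368, 378, 355 and 405 CPM in the controls and 353, 390, 372 and 398 CPM with formate. The groups covered the same range and 2 pairs pointed each way. The means were 376 ± 21.2 and 378 ± 19.9 CPM (log2 difference 0.01, SE 0.08; with pairs SE 0.04).

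Tuba1a (ENSMUSG00000072235, chr15:98949837-98953703, minus strand), a gene best known from developing neurons, had 641, 504, 200 and 285 CPM in the controls and 627, 585, 207 and 292 CPM with formate. The high libraries were those with codes 10 to 14, in both groups, and the low ones those with codes 1 to 8. The log2 difference was 0.07 (SE 0.44; with pairs SE 0.05), and it ranged from -0.17 without formate 1 to 0.38 without control 1, so its sign without pairs rests on single libraries.

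Tubb5 (ENSMUSG00000001525, chr17:35833921-35838306, minus strand), the main beta-tubulin of these cells and of dividing cells generally, showed the cleanest separation of the members. The controls had 2140, 2096, 2100 and 2154 CPM and the formate libraries 1736, 1697, 1894 and 1913 CPM. Every formate library lay below every control, which was true of 1 of the 9 members; over all 13299 tested genes the groups did not overlap, in either direction, in 4.29%, and every formate library was lower in 1.85%. The means were 2122 ± 28.8 and 1810 ± 109 CPM, a difference of -14.7% and of -0.23 on the log2 scale (SE 0.08; with pairs SE 0.05). The pairs with codes 10 to 14 differed by -0.30 each, those with codes 1 to 8 by -0.15 and -0.17.

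Tubb4b (ENSMUSG00000036752, chr2:25222160-25224702, minus strand), the other abundant beta-tubulin, had 599, 686, 613 and 680 CPM in the controls and 564, 640, 588 and 656 CPM with formate. It was lower in 4 of 4 pairs, by small steps of -0.10 to -0.05. Group means were 644 ± 44.6 and 612 ± 43.4 CPM, with overlapping ranges and a log2 difference of -0.07 (SE 0.09; with pairs -0.08, SE 0.04).

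The low beta-tubulins went separate ways. Tubb6 (ENSMUSG00000001473) had 41.2, 24.5, 23.1 and 20.5 CPM in the controls and 30.7, 19.4, 20.1 and 15.5 CPM with formate, lower in 4 of 4 pairs. Control 1 and formate 1, which are neighbours, were both high. The means of 27.3 ± 9.43 and 21.4 ± 6.53 CPM gave the largest log2 difference among members, -0.35 (SE 0.27; with pairs -0.34, SE 0.06); without pairs it was -0.58 without formate 1 and -0.08 without control 1. Tubb2a (ENSMUSG00000058672, chr13:34074274-34078007, minus strand) had 37.5, 37.4, 40.4 and 42.4 CPM in the controls and 34.1, 38.9, 44 and 47.2 CPM with formate. It was higher in 3 pairs and lower in the pair of codes 10 and 11, with a log2 difference of 0.06 (SE 0.11; with pairs 0.05, SE 0.06).

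Gamma-tubulin Tubg1 (ENSMUSG00000035198, chr11:101119938-101126419, plus strand) had 103, 96.7, 103 and 104 CPM in the controls and 85.1, 88.6, 95.7 and 98.6 CPM with formate. It was lower in 4 of 4 pairs, and control 2 alone reached into the formate range. The means were 102 ± 3.44 and 92 ± 6.24 CPM, a log2 difference of -0.15 (SE 0.08; with pairs SE 0.05).

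Over the 9 members, 6 were lower with formate in 4 of 4 pairs (Tuba1b, Tuba4a, Tubb5, Tubb4b, Tubb6 and Tubg1) and 0 were higher in 4 of 4, against 19.5% and 16% of all tested genes. The median log2 difference was -0.12 in both fits, beside -0.01 without and 0.00 with pairs over all tested genes. Over all 13299 tested genes edgeR called 1 (0.00752%) without pairs; with pairs it called 12.9%, of which 7.52% of tested genes were lower and 5.35% higher, and with a GC offset and pairs 13.8% (10.9% lower, 2.83% higher). The direction of that split depends on scaling: 1000 genes lower and 711 higher with TMM became 539 lower and 1048 higher with library size only. Since the members were chosen on this contrast, whether a member passed that threshold is no evidence and is not given. All 9 members passed the filter on low counts.

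**Figure D2:**
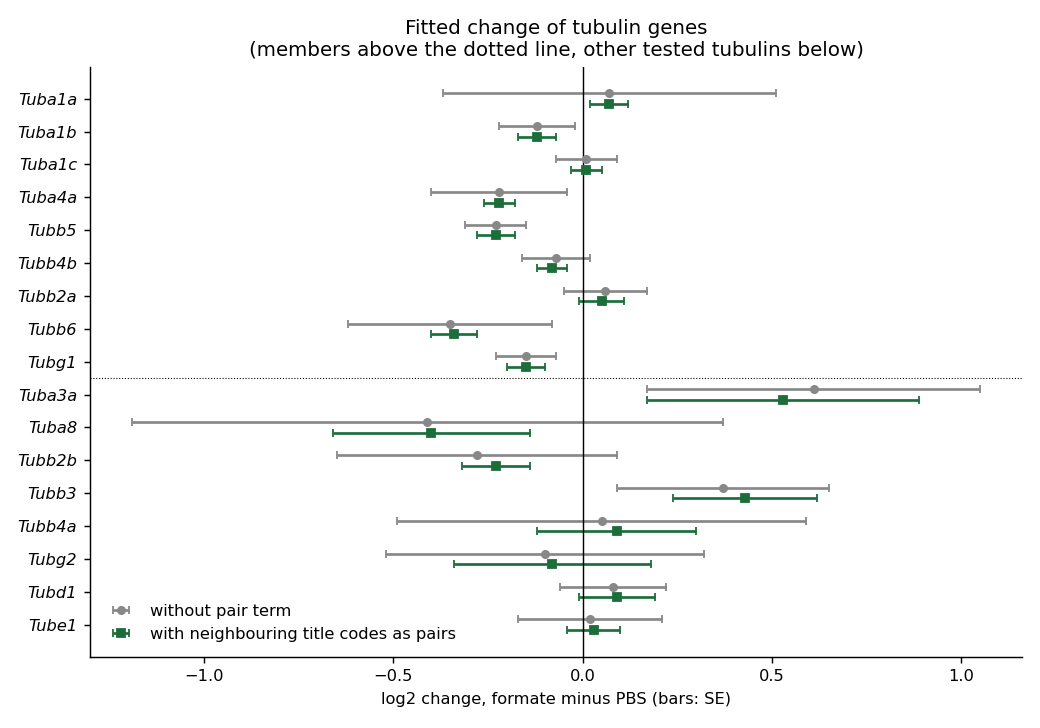
Log2 difference (horizontal axis, formate minus PBS) with its SE as bars for the 9 members and the 8 other tested tubulins, from the fit without pairs (grey circles) and with pairs (green squares). Point estimates are nearly the same in both fits; for Tuba4a the SE is 0.18 without and 0.04 with pairs.

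Summed, the members made up 6627, 6929, 6534 and 7107 CPM in the controls and 5883, 6287, 6128 and 6533 CPM with formate. All formate sums lay below all control sums, by 1 CPM at the closest, and the means were 6800 ± 265 and 6208 ± 273 CPM, a difference of -8.7%. The beta members carried more of it than the alpha members. Beta sums were 2833 ± 50.1 and 2484 ± 126 CPM (-12.3%, groups apart), and alpha sums 3864 ± 218 and 3631 ± 199 CPM (-6.03%, groups overlapping, lower in 4 of 4 pairs). Counts summed by family before the fit gave log2 differences of -0.19 (SE 0.07) for beta and -0.09 (SE 0.08) for alpha; the difference between the families was not tested.

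The composition of the pool moved little. Per kilobase, Tubb5 made up 74.3% ± 1.1 of the beta members in controls and 72.2% ± 1.54 with formate, lower in 4 of 4 pairs. Tubb4b held 23.7% ± 1.33 and 25.7% ± 1.62, higher in 4 of 4, and Tubb2a 1.09% ± 0.0623 and 1.29% ± 0.121, higher in 4 of 4. Among alpha members Tuba1c held 8.5% ± 0.273 and 9.14% ± 0.09, with all 4 formate shares (9.04% to 9.25%) above all control shares (8.3% to 8.89%). Tuba1b held 76.8% ± 2.98 and 75.9% ± 3.15, and Tuba4a 7.56% ± 1.06 and 6.97% ± 1.1. Shares of 1 family sum to 100%, so the lower share of 1 gene raises the others. The levels of the shares depend on the length: with the longest transcript Tubb5 held 64.4% and 61.9%, and Tubb4b 32.4% and 34.7%.

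**Figure D3:**
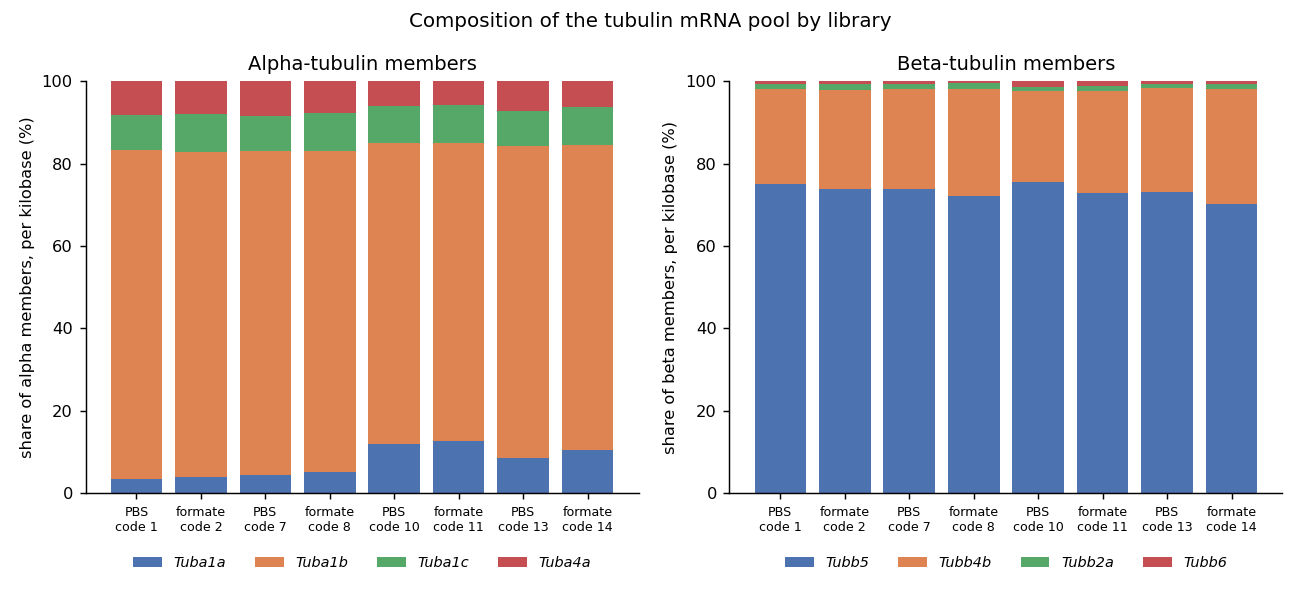
Share of each member in the alpha (left) or beta (right) members per kilobase of mean transcript (vertical axes, percent), 1 bar per library, ordered by title code. Tuba1a takes 3.58% to 5.09% in codes 1 to 8 and 8.5% to 12.6% in codes 10 to 14, a wider step than any between neighbouring PBS and formate bars.

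Several members differ from their relatives by few letters, and kallisto divides reads that fit more than 1 gene. Of all 31-base words in its GENCODE M21 transcripts, 21.43% of Tuba1a, 21.34% of Tuba1b and 44.68% of Tuba1c occur in no other gene, and Tuba1a shares 54.65% with Tuba1c. Tuba1b shares most, 61.1%, with AC157548.1, a gene absent from the deposited table. The share of words unique among the deposited genes alone was not computed. Tubb2a has 43.61% of its own and shares 51.08% with Tubb2b. Tubb4b has 47%, sharing mainly with the pseudogene Tubb4b-ps1, itself at 0.254 CPM in controls. Tuba4a has 61.57% and shares 35.63% with Stk16, a gene at the same place (48.1 CPM in controls, 54.1 with formate). Tubb5 (96.5%), Tubb6 (96.76%) and Tubg1 (80.68%) are mostly distinct, so their values depend little on how shared reads were divided.

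Some of these genes also differed between the library sets. Tuba1a was 246 ± 49.6 CPM in codes 1 to 8 and 589 ± 61.6 in codes 10 to 14, a ratio of 2.39 with no overlap. Tuba1b ran the other way, 2833 ± 181 and 2545 ± 233 CPM, and the sum of Tuba1a, Tuba1b and Tuba1c was 3462 ± 235 and 3506 ± 193 CPM, almost equal. Tubb2a was 43.5 ± 2.88 and 36.9 ± 2.04 CPM without overlap, and its sum with Tubb2b was 51.4 ± 2.86 and 52.9 ± 4.44 CPM. Tuba1a and Tubb2a were the 2 members of 9 whose sets did not overlap, beside 33.9% of all tested genes. What separates the sets, and what part read division has in these values, was not tested. An interaction of formate with library set in edgeR called 0 of 13299 genes (154 at an unadjusted p under 0.05). That fit had no pair term and few libraries per treatment in each set. Its lack of calls therefore does not show that the formate differences are equal in both sets.

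**Figure D4:**
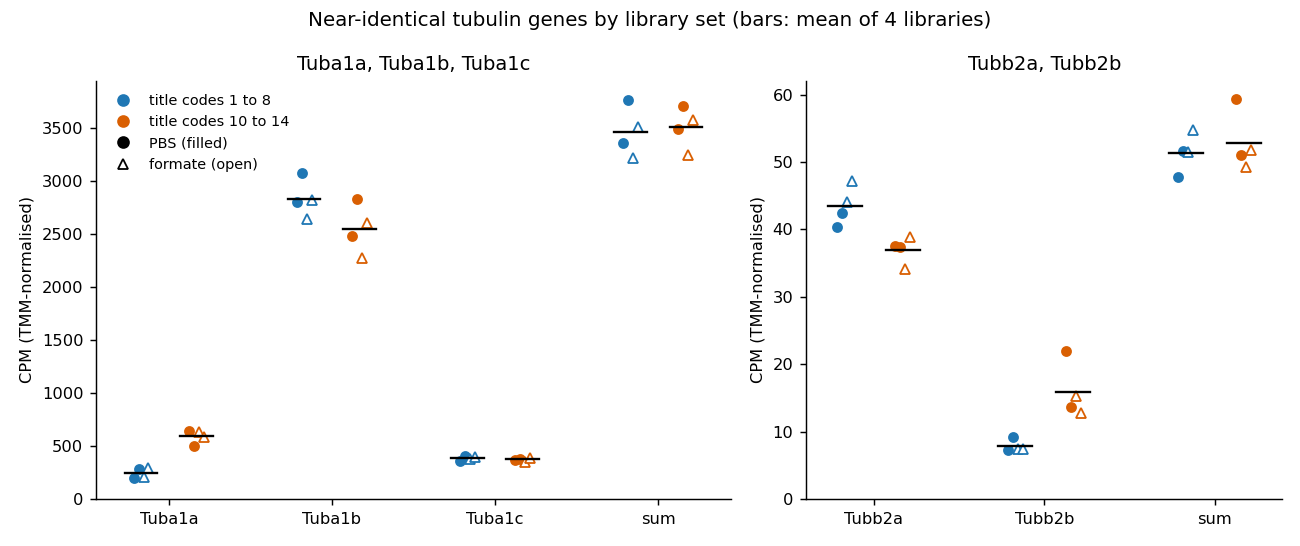
CPM (vertical axes, from 0) of near-identical tubulin genes and of their sum in the 2 library sets; filled circles are PBS, open triangles formate, and bars the mean of 4 libraries. Tuba1a and Tubb2b are higher in codes 10 to 14, Tuba1b and Tubb2a lower on average, and the sums lie close together.

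The other tubulin genes gave no called difference over all 8 libraries. Of 11 listed, 8 were tested and 0 were called in either fit (edgeR; with pairs the adjusted p ran from 0.115 to 0.876, without pairs it was 0.998 for each). Their median log2 difference with pairs was 0.06. Tubb2b had 13 ± 6.49 and 10.7 ± 3.93 CPM (with pairs -0.23, SE 0.09, edgeR adjusted p = 0.115). Tubb3, a beta-tubulin typical of neurons, had 2.88 ± 1.13 and 3.73 ± 0.485 CPM (0.43, SE 0.19, edgeR adjusted p = 0.165). Leaving out codes 10 and 11 took Tubb3 to 0.67 (edgeR adjusted p = 0.0492), a call in that fit, and leaving out codes 1 and 2 or 7 and 8 took it to 0.28 (edgeR adjusted p = 0.468 and 0.45). Tuba8 had 1.34 ± 1.31 and 1.01 ± 0.961 CPM and Tuba3a 0.455 ± 0.0686 and 0.694 ± 0.361 CPM. Tubb4a lay at 1.56 ± 0.99 and 1.63 ± 0.881 CPM, and Tubg2, the second gamma-tubulin, at 1.06 ± 0.506 and 0.997 ± 0.452 CPM. The centriolar tubulins Tubd1 (delta; 9.9 ± 1.51 and 10.5 ± 0.827 CPM) and Tube1 (epsilon; 22.7 ± 5.52 and 23 ± 3.89 CPM) had log2 differences with pairs of 0.09 (SE 0.10) and 0.03 (SE 0.07). Tuba3b and Tubal3 were too low to test, and Tubb1, the platelet beta-tubulin, had 0 counts in all 8 libraries, where 3 counts in the smallest library equal 0.102 CPM.

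Genes that fold, modify, nucleate, bind or move along microtubules, in 11 lists that include the other tubulins, showed more lower than higher calls once pairs were used. Of 143 tested genes, 19 fell (13.3%) and 6 rose (4.2%) in edgeR with pairs, beside 7.52% and 5.35% of all genes; the median log2 change was -0.05. Without pairs edgeR called 0 of them, and DESeq2 without pairs also called 0. An unadjusted edgeR p under 0.05 without pairs was reached by 10 of the 143, and by 634 of all 13299 tested genes. Leaving out a pair brought the count with pairs to 8 (codes 1 and 2), 12 (7 and 8), 20 (10 and 11) and 7 (13 and 14). The lists were drawn up with earlier results of these libraries known. Of the 25 called genes, Tbcd, Ttll12 and Dctn1 were called without each pair in turn, and each of the others lost its call without at least 1 pair. The split depends on scaling: it was 12 lower and 10 higher with library size only, 12 and 8 with the upper quartile, and 30 and 3 with a GC offset. Adjusted p-values of these genes are from edgeR with pairs, over all tested genes.

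Among genes of tubulin folding and dimer assembly, 3 rose and 2 fell of 20 tested. Of 7 tubulin folding cofactors, Tbcd, which holds beta-tubulin during dimer assembly, fell from 76.4 ± 1.93 to 63.4 ± 4.90 CPM (log2 -0.27, SE 0.05, adjusted p = 0.00448), with no overlap of the groups and a call without each pair in turn. Tbce, its alpha-binding counterpart, rose from 35.3 ± 3.26 to 41.8 ± 3.12 CPM (0.25, SE 0.06, adjusted p = 0.0123), a call lost without codes 1 and 2, 7 and 8, or 13 and 14. Of 13 chaperonin and prefoldin genes, Pfdn5 (0.30, adjusted p = 0.00905) and Vbp1 (0.22, adjusted p = 0.00807) rose and Pfdn2 (-0.16, adjusted p = 0.0354) fell, all prefoldin subunits that hand unfolded tubulin to the chaperonin. An offset for GC content took Vbp1 to -0.01 (adjusted p = 0.894).

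Nucleation genes were also mixed. Of 11 genes of the gamma-tubulin ring complex and its anchors, Mzt2 fell from 14.1 ± 1.52 to 11.3 ± 0.647 CPM (-0.32, SE 0.08, adjusted p = 0.0153) and Mzt1 rose from 40.4 ± 10.7 to 47.5 ± 15.6 CPM (0.21, SE 0.06, adjusted p = 0.0221); both are small adaptors of the ring complex. Of 8 augmin genes, which seed branching microtubules in the spindle, Haus2 rose (0.21, adjusted p = 0.0232). With the GC offset Mzt1 (adjusted p = 0.253) and Haus2 (adjusted p = 0.364) were no longer called.

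Of 18 tubulin-modifying enzymes 3 were called. Ttll12 fell from 78.9 ± 12.5 to 66.2 ± 11.7 CPM (-0.26, adjusted p = 0.00468), Ttll3, a glycylase, rose from 3.84 ± 0.978 to 5.33 ± 0.749 CPM (0.49, SE 0.13, adjusted p = 0.0207), and the deacetylase Sirt2 fell (-0.16, adjusted p = 0.0452, but 0.0509 with the GC offset). Of 12 genes tied to autoregulation of tubulin mRNA, 1 was called: Cnot2, a CCR4-NOT subunit, fell (-0.17, adjusted p = 0.0328), and the list's median was -0.06.

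The motor and spindle lists held calls in 1 direction only. Of 22 microtubule-associated and plus-end genes, 4 fell and 0 rose: Tpx2, a spindle assembly factor, from 250 ± 7.73 to 213 ± 20.9 CPM (-0.24, SE 0.05, adjusted p = 0.00709), Map7d1 (-0.21, adjusted p = 0.00643), Clip1 (-0.19, adjusted p = 0.0192) and Prc1, the crosslinker of the spindle midzone (-0.15, adjusted p = 0.0419). Of 10 severing and depolymerising genes the depolymerase Kif2c fell from 86.4 ± 1.52 to 73.1 ± 8.03 CPM (-0.25, SE 0.05, adjusted p = 0.00889). Of 17 kinesins, 4 fell, all mitotic motors: Kifc1 (-0.24, adjusted p = 0.00775), Kif4 (-0.19, adjusted p = 0.0128), Kif22 (-0.21, adjusted p = 0.0177) and Kif20a (-0.17, adjusted p = 0.0317). Kif11 (0.00), Kif14 (-0.03), Kif15 (-0.06), Kif20b (-0.05) and Kif23 (-0.12), also mitotic motors of the list, were not called. With the GC offset Kif15 (edgeR adjusted p = 0.0195), Kif20b (edgeR adjusted p = 0.00532) and Kif23 (edgeR adjusted p = 0.0242) were called lower. Of 17 dynein and dynactin genes, 4 fell: Dctn1, the large dynactin subunit, from 104 ± 11.9 to 87.4 ± 16.7 CPM (-0.26, adjusted p = 0.00501), the light chain Dynll2 (-0.23, adjusted p = 0.0104), Actr1a (-0.16, adjusted p = 0.0312) and Pafah1b1 (-0.14, adjusted p = 0.0496).

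**Figure D5:**
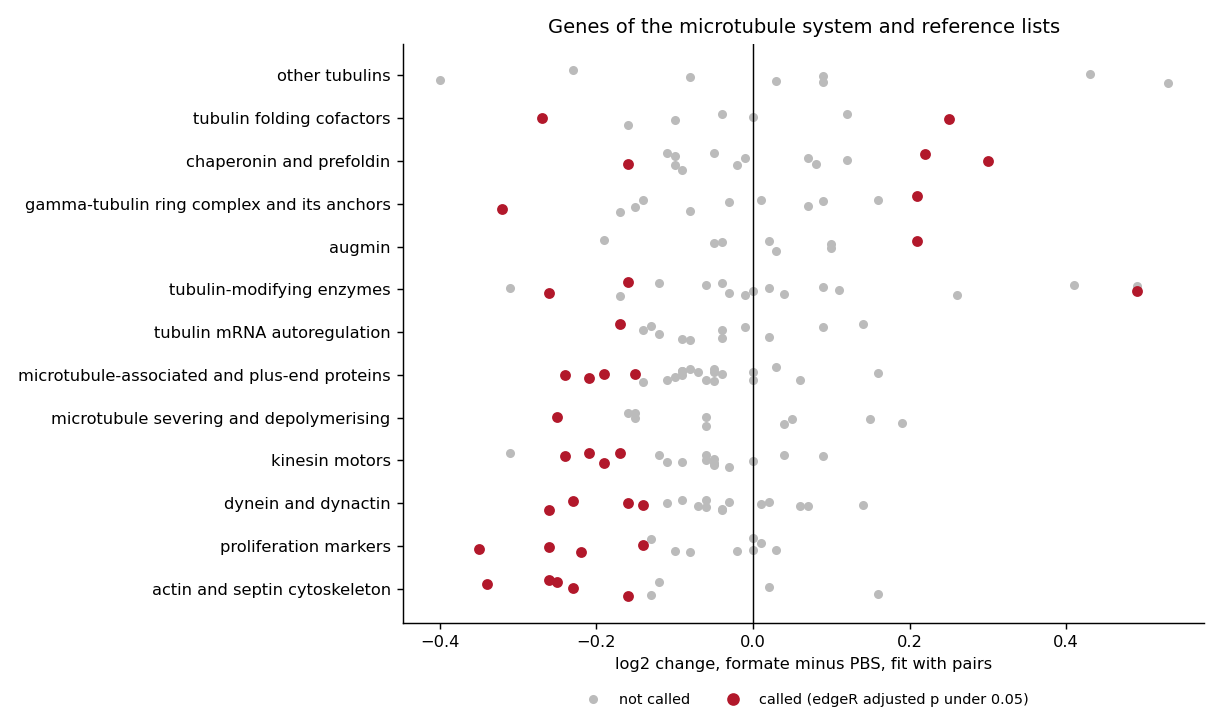
Log2 change with pairs (horizontal axis, formate minus PBS) of each tested gene in the microtubule lists, with proliferation and actin lists below; red points passed the edgeR adjusted p threshold of 0.05 and grey points did not, with vertical scatter only for legibility. Red points of the binding, motor, proliferation and actin lists all lie left of 0, while those of the folding, nucleation and modifying lists fall on both sides.

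Proliferation and actin genes, used for reference, also had lower calls with pairs and 0 calls without. With pairs 7.52% of all tested genes were called lower and 5.35% higher, a split whose direction depends on scaling. Of 12 proliferation markers, 4 fell and 0 rose: Plk1 from 161 ± 20.7 to 127 ± 20.1 CPM (-0.35, SE 0.05, adjusted p = 0.00124), Ube2c (-0.26, adjusted p = 0.00416), Cdc20 (-0.22, adjusted p = 0.00731) and Aurkb (-0.14, adjusted p = 0.0452), genes of mitotic entry and exit. The median of the list was -0.09. Its 8 other genes were not called, and their log2 differences ran from -0.13 (Top2a) to 0.03 (Cdk1). The actin and septin list, with 9 of 12 genes measured, had 5 falls and 0 rises: Vim, the intermediate filament protein, from 470 ± 102 to 369 ± 52.9 CPM (-0.34, adjusted p = 0.00173), Actg1 from 3441 ± 140 to 2875 ± 128 CPM (-0.26, adjusted p = 0.00448), Cfl1 (-0.23, adjusted p = 0.00564), Actb from 5524 ± 471 to 4655 ± 533 CPM (-0.25, adjusted p = 0.00619), and Arpc2, which is given because it completes the count (-0.16, adjusted p = 0.0275). Of these, Plk1, Ube2c, Cdc20, Vim and Cfl1 were called without each pair in turn. Actb and Actg1 lost their call without codes 1 and 2. None of the 9 measured genes of the actin and septin list is a septin. Its 4 uncalled genes ran from -0.13 (Pfn1) to 0.16 (Tmsb4x, higher in 4 of 4 pairs, edgeR adjusted p = 0.0678). The part that cell cycle or other cytoskeletal changes have in the tubulin values was not tested.

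Markers of the labelled cell type were present. The 7 measured CD8 T cell identity genes summed to 2218 ± 263 CPM in controls and 2199 ± 166 with formate (exact permutation p = 0.943, two-sided, adjusted 0.943 over 7 lists; the smallest this test allows is 0.0286). Summed B cell markers ranged from 14.2 to 23.5 CPM in controls and 14.8 to 26.4 with formate. CD4 T cell markers ranged from 12.8 to 20.5 and 12.8 to 22 CPM, and myeloid markers from 3.59 to 6 and 4.22 to 6.94, higher with formate in 4 of 4 pairs. Most of the myeloid sum was Cd68, with means of 3.03 CPM in controls and 3.76 with formate. Lyz2 came next, with means of 0.987 and 0.834 CPM. Stromal markers ranged from 17.8 to 24.5 and 17.8 to 23.5 CPM, with Cdh5 at 0. Most of the stromal sum was 1 gene, Pecam1, with means of 18.9 CPM in controls and 19.3 with formate. The next highest, Col1a1, had means of 0.538 and 0.545 CPM. Erythroid and platelet markers ranged from 0.703 to 1.11 and 1.06 to 1.96 CPM (exact permutation p = 0.0857, adjusted 0.6, without pairs) and were higher with formate in 4 of 4 pairs, with Hba-a1, Pf4 and Gp9 at 0. Most of that sum was Itga2b, with means of 0.838 CPM in controls and 1.33 with formate. Of all tested genes, 16% were higher in 4 of 4 pairs. Among single markers, Ms4a1 of B cells rose with pairs from 2.39 ± 1.16 to 3.67 ± 1.91 CPM (0.62, SE 0.17, edgeR adjusted p = 0.0275, and 0.0806 with the GC offset). It no longer passed (edgeR adjusted p = 0.142, 0.119 and 0.135) when codes 1 and 2, 10 and 11, and 13 and 14 were left out in turn. The lowest p in 5 other marker lists was not called (edgeR adjusted p for Cd3g 0.205, Cd40lg 0.233, Cd68 0.183, Itga2b 0.121, Pdgfrb 0.728); with the GC offset Cd3g was called lower (-0.23, SE 0.06, edgeR adjusted p = 0.0206).

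Members varied together to unequal degrees. Over the 8 libraries, Pearson's r of log2 CPM was 0.97 for Tuba1b with Tuba4a, 0.92 for Tubb5 with Tubg1 and 0.84 for Tuba1b with Tubb4b, and it was -0.77 for Tubb2a with Tubb6 and -0.75 for Tuba1a with Tuba4a. Among the 9152 genes whose mean reached 5 CPM, those most like the summed members were Ptma (r = 0.99, Spearman's rho 0.98), F2r (0.98, 0.95), Mtg1 (0.98, 1.00), Rbfa (0.96, 0.93) and Ada (0.96, 0.93). The 8 points of each correlation include both groups and both library sets, so these values describe these libraries only.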

How the data were processed

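RNA of 8 libraries (4 control, 4 formate) was read from a stranded polyA kit, per the labels' protocols. The authors deposited estimated counts per gene, neither normalised nor pooled; per the submitters' processing notes the tools included kallisto, Trimmomatic and MultiQC, with mm10 and GRCm38 as builds. No source used here gives the transcriptome release or the strand setting. Of non-zero values 56.7% were not whole; all were rounded. Without the strand setting, overlapping genes such as Tuba4a and Stk16 are uncertain.

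Counts were tested in R 4.3.3 with edgeR 4.0.16 (TMM, filterByExpr with a minimum count of 10, robust quasi-likelihood, Benjamini-Hochberg adjusted p under 0.05), leaving 13299 genes; DESeq2 1.42.0, other scalings and left-out libraries were alternatives, some added after seeing the data. The planned fit had no pairs. Deviations from group means correlated by 0.653 (codes 1 and 2), 0.369 (7 and 8), 0.656 (10 and 11) and 0.37 (13 and 14), so the paired fit is given wherever it changes a call. That pairing comes from title codes alone, and control 4 correlated best with formate 3. Neighbours also share a library set, so these correlations cannot tell a pair from a set. Nothing calls the replicates separate animals or cultures, so p-values reflect a spread that may be only technical. Most alike genes were ranked by r with the log2 summed CPM (prior count 2). GC offsets used loess (span 0.5) on 13200 genes with GENCODE M21 transcripts. On simulated counts for 13299 genes the unpaired fit recovered 10% of genes changed 1.5-fold and 61% of those changed 2-fold. The paired fit recovered 74% and 86% on other simulated counts, which had pair differences built in and used the spread of the paired fit. The percentages therefore do not compare the 2 fits and say nothing on whether the title codes are true pairs.

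The members and the 21 lists were chosen with earlier results of these data known. Named genes are all tubulins, up to 4 genes called with pairs per list by smallest p (1 where none is called), and the 5 most alike. Added after their values were seen were Arpc2, single genes given as sharing reads, and genes given for the range or makeup of a list. Where GENCODE names an annotated exon, promoter bases are not shown. The result of 1 marker list is not reported here.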

Additional observations from a re-analysis of the deposited data

Results flagged for a closer look

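Tubg1 in control 2, at 96.7 CPM, lay apart from the other 3 controls at 103 to 104 CPM; its gap to the nearest was 0.89 of the group's range, above Dixon's 95% critical value for 4 samples. It was the 1 case among 44 groups of 4 libraries checked. By chance about 1 in 20 groups would pass this value, so a single flag is no more than chance would give. Control 2 was kept in the values above, and the Tubg1 groups overlap. The fitted Tubg1 difference was below 0 in each of 26 alternative settings, which refit the same libraries.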

How the results depend on the processing

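Without pairs 1 gene was called; leaving out each library in turn gave 0 to 1, the library sets alone gave 0 within codes 1 to 8 and 0 within codes 10 to 14, and DESeq2 gave 21. With the replicate block, 1711 genes were called (711 higher, 1000 lower); the split moved to 612 and 1126 of 1738 with RLE size factors, 832 and 736 of 1568 with the upper quartile, 1048 and 539 of 1587 with library size only, 376 and 1455 of 1831 with a GC offset, and 492 and 1082 of 1574 with DESeq2. No low-count filter gave 2277. Leaving out a pair left 337 (codes 1 and 2), 722 (7 and 8), 1371 (10 and 11) or 502 (13 and 14). Of the microtubule genes, 0 were called without and 25 with the block; the block counts were 26 (RLE), 20 (upper quartile), 22 (library size only), 31 (no filter), 33 (GC offset), 28 (DESeq2), and 8, 12, 20 and 7 without each pair in that order. The causes were not tested.

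Tuba1b, Tuba4a, Tubb5, Tubb4b, Tubb6 and Tubg1 stayed below 0 in 26 of 26 alternatives, while Tuba1a was below 0 in 4, Tuba1c in 8 and Tubb2a in 2. The alternatives refit the same libraries, and the members were chosen on this contrast. A constant sign is therefore no independent evidence. Tubb5 was -0.16 within codes 1 to 8 and -0.29 within codes 10 to 14. The log2 ratio of summed members, -0.131, ranged from -0.157 to -0.106 on leaving out a library and was -0.096 with library size only. Values on the low side of 3 counts (0.102 CPM in the smallest library) are limited by depth, which concerns no member.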

Other observations

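The low tubulins that lie outside the members followed the library sets more than the treatment. Of the 8 tested, 5 had sets that did not overlap, all higher in codes 10 to 14: Tuba8 (ratio of means 4.26), Tubb4a (2.84), Tubb2b (2.03), Tubg2 (1.92) and Tube1 (1.37). Over all tested genes 33.9% had sets that did not overlap. Tuba8 ranged from 0.338 to 0.574 CPM in codes 1 to 8 and from 0.968 to 3.27 CPM in codes 10 to 14, and Tubb2b from 7.3 to 9.22 and from 12.8 to 21.9 CPM. What the sets are was not tested.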
